A study of Mus musculus with 6 samples.

Results

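The stress-induced, mucosal and simple epithelial keratins studied here are 10 genes: Krt6a, Krt6b, Krt16 and Krt17 (stress-induced), Krt4, Krt13 and Krt76 (mucosal), and Krt8, Krt18 and Krt19 (simple epithelial). They were taken by gene symbol from a table of 23951 genes, and all 10 were present. The list was chosen by the known roles of the genes together with their FPKM values in these same libraries, so their difference between the genotypes is described here without a test. RNA sequencing of poly(A) RNA was carried out on whole skin of 6 C57Bl/6 mice aged 6 to 7 months, which were littermates: 3 control mice (JunB +/+) and 3 JunBΔep mice (JunB dep). JunBΔep mice lack JunB, a subunit of the AP-1 transcription factor, in cells that express keratin K5, which are mainly basal keratinocytes and their descendants. All other cells of the skin keep the gene. Lesional skin was taken from the JunBΔep mice. The labels name no treatment for either group. The levels are FPKM, fragments scaled by transcript length and by the mapped total, which allow genes to be compared per length. The number of reads per library is unknown. Values listed 3 at a time are in the order of replicates 0, 1 and 2.

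Keratins form the intermediate filaments of epithelial cells, and each filament pairs a type I chain (here Krt13, Krt16, Krt17, Krt18 and Krt19) with a type II chain (Krt4, Krt6a, Krt6b, Krt8 and Krt76). Krt6a, Krt6b, Krt16 and Krt17 are made in hair follicles and nail and appear in the epidermis between the follicles after wounding or in hyperproliferative inflammation. Krt4 and Krt13 are the suprabasal pair of non-cornified mucosa such as the oesophagus, and Krt76 is a keratin of the oral palate. Krt8 and Krt18 pair in simple epithelia, including the secretory cells of glands, and with Krt19 they also occur in Merkel cells.

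Junb itself, the deleted gene, measured 59.3, 72.4 and 56.9 FPKM among controls. JunBΔep replicates 1 and 2 held 42.8 and 28.0 FPKM of it, and the library labelled JunBΔep replicate 0 held 129.6 FPKM. Thus 2 of 3 JunBΔep libraries lay below every control, and the library labelled JunBΔep replicate 0 lay above every control. Junb in whole skin also comes from cells that keep the gene, so its level cannot decide whether a label is right. Neither the label nor the tissue site of that library was tested. Each keratin difference below is given with and without that library. FPKM sums ran from 481078 to 630363 per library. In the table, 9 genes were listed at 0 in the library labelled JunBΔep replicate 0 while the other 5 libraries were at 1 FPKM or more, against 0 or 1 gene in each other library, and 4 of the 9 were keratins (Krt6a, Krt16, Krt14 and Krt75). Krt14 was listed at 0 there beside 3725 FPKM of its partner Krt5, so such a 0 may be a failed estimate and is reported only as a listing. Epidermal markers were abundant in all 6 libraries, with a summed level of 6905 to 12673 FPKM over 7 markers. Skeletal muscle markers moved with the genotype: their sum was 16694 to 22905 FPKM in controls against 1585 to 3806 FPKM in JunBΔep libraries, and 6 of 7 were called lower by limma with Benjamini-Hochberg adjustment. In all, 235 of 17021 genes tested (1.38%) were called, 0 of them higher, though 0 genes were called without any one control or without JunBΔep replicate 1. With a block on replicate numbers or on the number series of sample names 0 genes were called as well. Without the library labelled JunBΔep replicate 0, 135 were called, 10 of them higher. The hepatocyte list summed to 1774 FPKM in control replicate 0, with 38.2 FPKM or less elsewhere, and for the adipocyte list the library labelled JunBΔep replicate 0 had a sum of 3.04 FPKM, with 374 to 1662 FPKM elsewhere. Of the dermis, hair follicle bulge, sebaceous gland and mesothelium lists (5, 5, 4 and 3 genes tested) 0 were called, and 0, 1, 1 and 0 had an unadjusted p below 0.05, against 7.56% of all genes tested. The part of these cells in the keratin values was not tested. In whole skin, fewer cells of a type and less RNA per cell cannot be told apart.

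Krt6a and Krt6b are near-copies of each other. On the mm9 build Krt6a (chromosome 15, 101520363 to 101524738, 9 exons) and Krt6b (chromosome 15, 101506465 to 101510720, 9 exons) lie on the minus strand with 9642 bases between them, and 1625 of 1662 aligned coding bases are identical (97.8%). Their longest identical coding run is 280 bases. The following 90-base stretch of exon 4 holds 12 of their differences, marked by capitals, and is shown because reads from the coding sequence tell these genes apart only over such bases. It is at chr15:101522915-101523004 in Krt6a and chr15:101508734-101508823 in Krt6b.
Krt6a: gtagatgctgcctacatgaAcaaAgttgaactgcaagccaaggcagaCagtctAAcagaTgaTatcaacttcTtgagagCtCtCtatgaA
Krt6b: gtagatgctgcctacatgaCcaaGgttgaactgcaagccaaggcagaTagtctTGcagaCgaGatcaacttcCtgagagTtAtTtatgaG

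Krt16 (chromosome 11, 100107405 to 100110276, 8 exons) and Krt17 (chromosome 11, 100117531 to 100122343, 8 exons) are neighbours on the minus strand, 7254 bases apart. Krt16 is nearer to Krt14, the basal epidermal type I keratin, with 85.3% of coding bases identical, than to Krt17 with 75.3%. Krt17 and Krt14 share 83.0%. The 134-base run that Krt16 and Krt14 have in common lies in exon 1 (chr11:100109790-100109923 in Krt16) and is shown since both genes were listed at 0 in the same library. Krt6a and Krt6b, with a run of 280 bases, were also listed at 0 there. Krt6a shares a run of 140 bases with Krt5, which was at 3725 FPKM there. Krt75, listed at 0, shares a run of 29 bases with Krt6a. Whether shared sequence bears on these listings was not tested.
Krt16 and Krt14 shared run: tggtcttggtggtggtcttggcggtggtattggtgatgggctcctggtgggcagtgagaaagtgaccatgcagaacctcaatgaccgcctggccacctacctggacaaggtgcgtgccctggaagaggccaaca
The alignment kept reads that map to several places, but how such reads were divided between genes for the FPKM values is not stated in the sources used here, so the single levels of Krt6a, Krt6b and Krt16 are uncertain. The mucosal and simple members are less alike: Krt4 and Krt76 share 70.8% and Krt18 and Krt19 61.0% of aligned coding bases.

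The members of a set did not all move together over the 6 libraries. Krt17 was the highest of the 10 in every library, Krt4, Krt13 and Krt76 were abundant in 1 JunBΔep library alone, and Krt8 and Krt18 were high in 1 library of each genotype. On the log2 scale the correlations of Krt17 were -0.85 with Krt6a, -0.92 with Krt16 and 0.92 to 0.93 with the mucosal keratins, a description over 6 libraries that all points share. They rest on the library labelled JunBΔep replicate 0, where Krt17 was highest and Krt6a and Krt16 are listed at 0. Among the remaining libraries Krt6a was lowest and highest where Krt17 was: 33.0 beside 626 FPKM in control replicate 0, and 112 beside 1319 FPKM in JunBΔep replicate 1. Krt16 did not show this order. Krt19 was nearer to Krt6b (0.97) than to Krt8 (0.55) or Krt18 (0.52).

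In controls the order by mean level was Krt17 (727 ± 106 FPKM, SD, n = 3), Krt6a (51.0 ± 15.6), Krt18 (23.6 ± 34.3), Krt8 (20.3 ± 29.1), Krt16 (10.7 ± 2.43), Krt19 (1.89 ± 0.785), Krt4 (0.645 ± 0.318), Krt6b (0.546 ± 0.290), Krt13 (0.223 ± 0.125) and Krt76 (0.0301 ± 0.0191). The values of neighbours in this order overlapped from Krt6a through Krt16 and from Krt4 through Krt13, whereas Krt17, Krt19 and Krt76 did not overlap with any neighbour.

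On the log2(FPKM + 0.5) scale the median difference (JunBΔep minus control) of the 10 keratins was 0.89, against 0.03 for all 17021 genes tested, those averaging 0.1 FPKM or more. Without the library labelled JunBΔep replicate 0 it was 0.54, against 0.03. In 0 of 10 did the JunBΔep libraries all lie on one side of the controls, against 14.8% of all genes. These values stand as a description, since the list was selected on this contrast. All 10 passed the filter on low values, Krt76 only through the library labelled JunBΔep replicate 0.

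**Figure D1:**
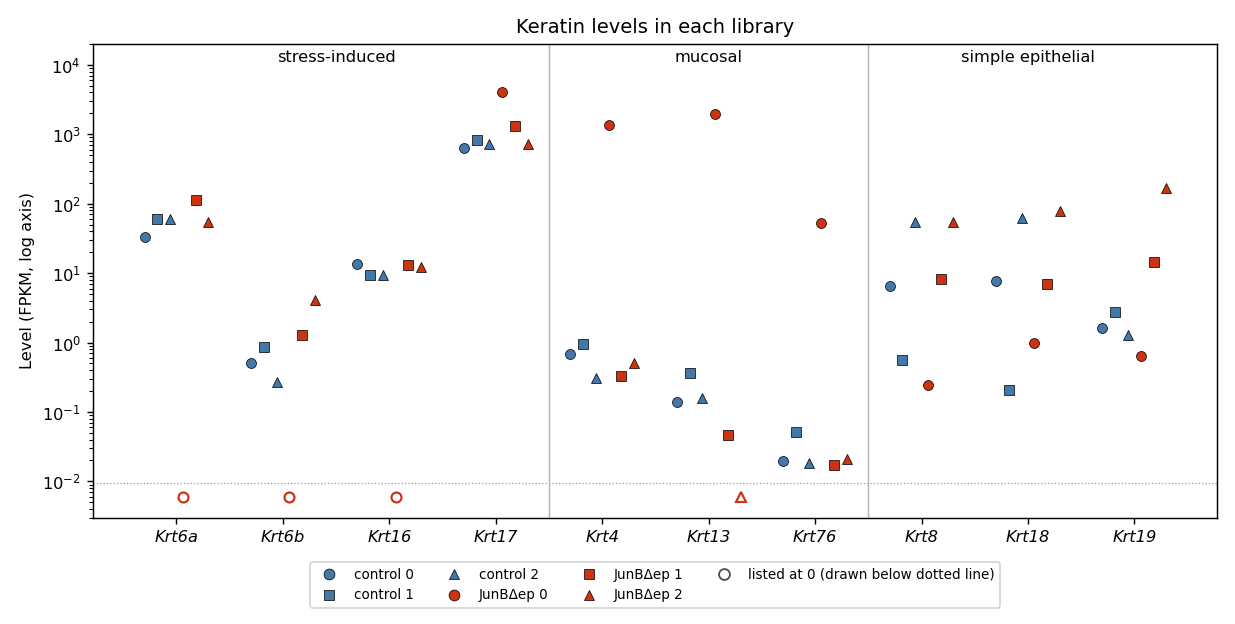
Levels of the 10 keratins in each library (FPKM, log axis; circles, squares and triangles are replicates 0, 1 and 2; blue, control; red, JunBΔep; open symbols under the dotted line are listed at 0). Krt4, Krt13 and Krt76 stand at 52.5 to 1989.6 FPKM for JunBΔep replicate 0 and under 1 FPKM in the other 5, while Krt17 is at 626 FPKM or more in all 6.

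Krt17, a stress keratin that also belongs to the hair follicle, measured 626, 837 and 719 FPKM in controls versus 4025, 1319 and 713 FPKM in the JunBΔep replicates. It was thus above every control in 2 JunBΔep libraries and within the control range in the third. By level it held rank 122 to 137 of all genes in controls and rank 7, 51 and 117 in JunBΔep replicates 0, 1 and 2. The mean of JunBΔep mice was 2019 ± 1763 FPKM (SD, n = 3), beside 727 ± 106 FPKM in controls. The log2 difference was 1.11 with a standard error of 0.64, and it ran from 0.43 without the library labelled JunBΔep replicate 0 to 1.67 without JunBΔep replicate 2.

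Krt6a, the more abundant of the Krt6 genes, was at 33.0, 59.8 and 60.4 FPKM in controls. JunBΔep replicates 1 and 2 held 112 and 53.6 FPKM, and it was listed at 0 in the library labelled JunBΔep replicate 0. Leaving that library aside, 1 JunBΔep mouse lay above every control and the other lay among them. The log2 difference was 0.65 without it and -1.78 (standard error 2.00) with it, so the direction hangs on 1 listing at 0. With each library left out in turn it ran from -3.26 to 0.65.

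Krt16, the type I partner of the Krt6 chains, was at 13.5, 9.35 and 9.29 FPKM in controls versus 13.2 and 12.3 FPKM for JunBΔep replicates 1 and 2. It too was listed at 0 in the library labelled JunBΔep replicate 0. The groups overlapped: the highest value of all 6 was a control. Its log2 difference was 0.26 without that library and -1.32 (standard error 1.29) with it, and it ran from -2.13 to 0.26 with each library left out in turn.

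Krt6b was at 0.514, 0.851 and 0.274 FPKM in controls, with 1.30 and 4.16 FPKM for JunBΔep replicates 1 and 2, and listed at 0 in the library labelled JunBΔep replicate 0. Both JunBΔep libraries with a value were above every control. The log2 difference was 1.51 without the listing at 0 and 0.66 (standard error 0.80) with it. Without JunBΔep replicate 2 it was -0.11, so its direction rests on that library too. Relative to Krt6a the balance differed between mice: 64.1, 70.2 and 220.2 units of Krt6a per unit of Krt6b in controls, 86.2 in JunBΔep replicate 1 and 12.9 in JunBΔep replicate 2. By contrast Krt6a per unit of Krt17 stayed between 0.0527 and 0.0848 in the 5 libraries where both had a value. Krt6a per unit of Krt16 ran from 2.44 to 8.47.

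In the difference without the library labelled JunBΔep replicate 0, each of the 4 stress-induced keratins was higher on average in the remaining JunBΔep libraries, by 0.26 to 1.51 on the log2 scale. For Krt17 and Krt6a this came from JunBΔep replicate 1, at 0.87 and 1.18 over the control mean, against -0.02 and 0.12 in JunBΔep replicate 2. JunBΔep replicate 1 also had the highest summed level of root sheath and companion layer keratins, 6162 FPKM. Control replicate 2 was next, at 3537 FPKM, with Krt17 at 719 FPKM. The part of hair follicle cells in these values was not tested. With only Krt6b did both of those libraries exceed every control. This was the case for 11.1% of all genes tested.

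**Figure D2:**
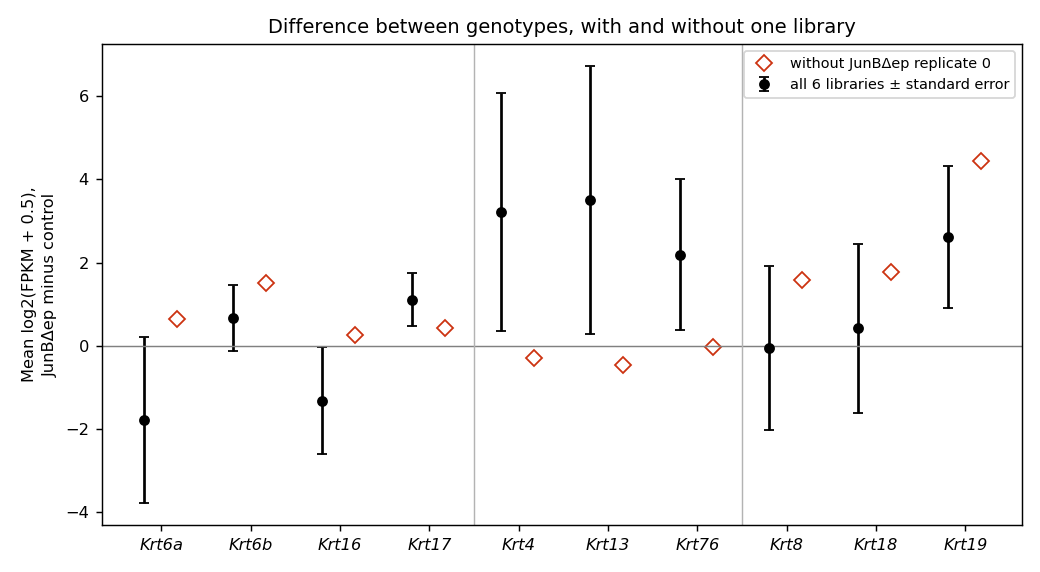
Difference between genotypes for each keratin on the log2(FPKM + 0.5) scale (black, all 6 libraries with the standard error of the fit; red diamonds, without JunBΔep replicate 0). Krt4, Krt13 and Krt76 lie at 2.20 to 3.51 with all libraries and at -0.45 to -0.03 without that one, whereas Krt6a and Krt16 turn from below 0 to above 0.

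The mucosal keratins were under 1 FPKM in 5 of 6 libraries. Krt13, the type I chain of the mucosal pair, was at 0.140, 0.367 and 0.161 FPKM in controls, at 0.0460 FPKM in JunBΔep replicate 1 and listed at 0 in JunBΔep replicate 2. In the library labelled JunBΔep replicate 0 it reached 1989.6 FPKM, rank 36 of all genes. Krt4, its type II partner, was at 0.691, 0.937 and 0.307 FPKM in controls versus 1356, 0.331 and 0.504 FPKM in the JunBΔep replicates. Krt76 was at 0.0199, 0.0521 and 0.0183 FPKM in controls versus 52.5, 0.0174 and 0.0207 FPKM in the JunBΔep replicates. All 3 therefore lay far above every other library in 1 mouse and at the control level or below it in the other 2 JunBΔep mice.

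Against the mean log2 level of the controls, that library was higher by 11.44 for Krt13, 10.25 for Krt4 and 6.65 for Krt76. Within it there were 0.682 units of Krt4 and 0.0264 units of Krt76 per unit of Krt13. A library at least 10 times above every other was seen there for 1.25% of all genes tested, and 29.7% of genes had their highest value in it. The log2 differences over all 6 libraries were 3.51 (standard error 3.22) for Krt13, 3.23 (standard error 2.86) for Krt4 and 2.20 (standard error 1.81) for Krt76, each close to its standard error. Without the library labelled JunBΔep replicate 0 they were -0.45, -0.29 and -0.03, and without JunBΔep replicate 1 or 2 they were 5.46 or 5.53, 5.05 or 4.91, and 3.31 in both cases. Both remaining JunBΔep libraries were then below every control for Krt13, as for 13.0% of all genes tested, at levels under 0.4 FPKM.

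Krt13 (chromosome 11, 99978641 to 99982880, 8 exons) lies in the type I cluster, and Krt76 (chromosome 15, 101714782 to 101723351, 9 exons) and Krt4 (chromosome 15, 101748967 to 101755166, 9 exons) lie 25615 bases apart in the type II cluster, all on the minus strand. The promoter windows of 300 bases (250 before to 50 after the start) that matched members in the RefSeq set on GRCm38.p6 were those of 4 of 10 members, Krt13 (both of its starts), Krt76, Krt8 and Krt18. The windows of Krt13 and Krt76 are shown because these genes moved together in 1 library. Capitals mark matches to TGANTCA (the AP-1 motif, which is the class of site JunB binds) or TATAAA, searched on both strands.
Krt13 first start, chr11:100121517-100121816, minus strand: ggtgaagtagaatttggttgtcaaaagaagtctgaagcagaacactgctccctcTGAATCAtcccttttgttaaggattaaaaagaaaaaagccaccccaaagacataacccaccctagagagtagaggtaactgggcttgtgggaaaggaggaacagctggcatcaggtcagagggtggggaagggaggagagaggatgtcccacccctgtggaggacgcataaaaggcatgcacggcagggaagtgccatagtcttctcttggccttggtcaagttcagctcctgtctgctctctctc
Krt13 second start, chr11:100120528-100120827, minus strand: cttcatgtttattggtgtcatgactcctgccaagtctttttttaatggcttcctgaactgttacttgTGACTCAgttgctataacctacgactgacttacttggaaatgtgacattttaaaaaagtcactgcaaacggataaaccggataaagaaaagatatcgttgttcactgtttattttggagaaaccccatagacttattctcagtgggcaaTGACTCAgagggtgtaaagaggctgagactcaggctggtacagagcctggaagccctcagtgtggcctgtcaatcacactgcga
Krt76, chr15:101892871-101893170, minus strand: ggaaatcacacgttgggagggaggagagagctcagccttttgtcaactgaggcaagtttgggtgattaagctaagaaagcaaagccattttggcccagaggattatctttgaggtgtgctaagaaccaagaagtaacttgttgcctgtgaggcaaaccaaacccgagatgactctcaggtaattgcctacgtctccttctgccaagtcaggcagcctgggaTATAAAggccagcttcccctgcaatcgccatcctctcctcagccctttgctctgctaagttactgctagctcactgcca
By their first base, the AP-1 letters lay at -196 from the first start of Krt13, and at -183 and -34 from its second start. They were found in 7.81% of 32851 promoters. Krt76 held TATAAA at -29, a match that 13.6% of promoters hold, and Krt8 held 2 overlapping matches on opposite strands at -3 and -1. The STAT letters TTCNNNGAA, present in 8.30% of promoters, were in none of the 5 windows. No AP-1 match fell within the windows of Krt76, Krt8 or Krt18. A match is a description of these letters and not a bound site.

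Genes of stratified mucosa, a list of transcription factors, proteases and envelope proteins typical of oesophagus and mouth, were read beside the mucosal keratins. Of 9 tested, 0 were called in either direction (1.38% over all genes, all lower). Sprr3, Pax9, Tmprss11a and Tmprss11d were among the 9 only through the library labelled JunBΔep replicate 0, without which they average less than 0.1 FPKM, so the counts and the median of this list are a description of that library. Sprr3, an envelope precursor of the oesophagus, was at 0.0212, 0.0444 and 0 FPKM in controls versus 398, 0 and 0.0220 FPKM in the JunBΔep replicates, the first being the library labelled JunBΔep replicate 0. Tmprss11a and Tmprss11d, transmembrane serine proteases of the airway and mouth, were at 15.5 and 21.4 FPKM in that library and at 0.0899 FPKM or less in the other 5. The transcription factor Pitx1 was at 18.2 FPKM there versus 0.107 to 0.276 FPKM elsewhere, and Pax9 was at 1.67 FPKM there. In all, 9 of the 10 genes present had their highest value in the library labelled JunBΔep replicate 0, against 29.7% of all genes tested. The median log2 difference of the list went from 1.40 to -0.03 without that library. Crnn did not follow: it was at 0.0848, 0.118 and 73.9 FPKM in controls versus 11.0, 80.4 and 1.14 FPKM in the JunBΔep replicates. The labels give skin for all 6 libraries, and the part of tissue from another site in the mucosal keratin levels was not tested.

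**Figure D3:**
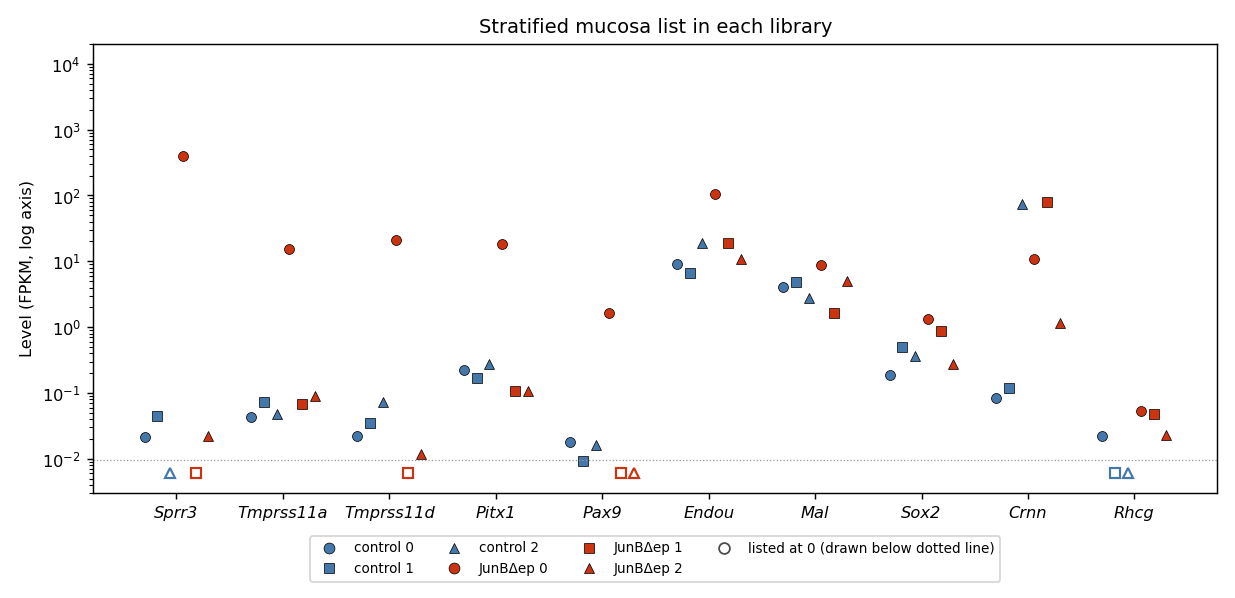
Levels of 10 genes of the stratified mucosa list in each library (FPKM, log axis; symbols and colours as for the keratin levels; open symbols under the dotted line are listed at 0). All except Crnn have their highest point in JunBΔep replicate 0, at 398 FPKM for Sprr3.

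Krt8 and Krt18, the simple epithelial pair, varied together without following the genotype. Krt8 (chromosome 15, 101827142 to 101834773, 9 exons) was at 6.60, 0.561 and 53.6 FPKM in controls versus 0.248, 8.27 and 55.1 FPKM in the JunBΔep replicates. Krt18 (chromosome 15, 101858647 to 101862457, 7 exons) was at 7.58, 0.207 and 63.0 FPKM in controls versus 0.990, 7.08 and 77.2 FPKM in the JunBΔep replicates. Both genes were highest in replicate 2 of each genotype, and the groups overlapped over nearly their whole range. The log2 difference was -0.05 (standard error 1.98) for Krt8 and 0.43 (standard error 2.03) for Krt18. Their direction depended on single libraries. Without the library labelled JunBΔep replicate 0 the differences were 1.57 and 1.77, without control replicate 2 they were 1.38 and 2.00, without control replicate 1 they were -1.46 and -1.24, and without JunBΔep replicate 2 they were -1.53 and -1.08.

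These neighbours, 23873 bases apart on opposite strands, had a Pearson correlation of 0.98 on the log2 scale over the 6 libraries, which is a description of points that share libraries and scaling. The number of Krt8 units per unit of Krt18 was 0.852 to 2.71 in controls and 0.250 to 1.17 in JunBΔep libraries.

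Krt19 (chromosome 11, 100002124 to 100009979, 6 exons), a type I chain found without a fixed partner in simple epithelia, glands and the hair follicle bulge, was at 1.61, 2.77 and 1.28 FPKM in controls. The JunBΔep replicates held 0.635, 14.3 and 167 FPKM, so that 1 JunBΔep library lay below every control and 2 above. The log2 difference was 2.61 (standard error 1.71) over all libraries. It was 4.43 without the library labelled JunBΔep replicate 0 and 0.83 without JunBΔep replicate 2. In the former case both remaining libraries were above every control, as for 11.1% of all genes tested. Krt19 held rank 411 of all genes in JunBΔep replicate 2.

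The numbers in the sample names fall into a lower series (the library labelled JunBΔep replicate 0, and control replicates 0 and 1) and a higher series (control replicate 2, and JunBΔep replicates 1 and 2). Krt8 was at 0.248 to 6.60 FPKM in the former and at 8.27 to 55.1 FPKM in the latter, with no overlap. The simple keratin Krt7 did the same, with 0.550 to 3.34 against 3.88 to 18.6 FPKM, as did the gland markers Cldn3, Cldn7 and Elf5. The other gland and simple epithelium markers read here (Epcam, Ehf, Elf3, Wfdc2, Aqp5, Muc1 and Prom1) overlapped between the series. Of the 10 members, Krt8 was the 1 that was higher in the higher series without overlap, as were 5.14% of all genes tested, and Krt4 the 1 that was lower, as were 3.81%. The other 8, Krt18 and Krt19 included, overlapped between the series. Within the series the log2 difference between genotypes of Krt8 was -1.88 and -1.29, that of Krt18 was -0.68 and -1.39, and that of Krt19 was -1.21 and 4.81, each with 1 library on one side. For Krt17 it was 2.47 and 0.43, for Krt4 10.02 and 0.18, for Krt13 11.38 and -0.34, and for Krt76 6.63 and 0.00. Krt6a, Krt6b and Krt16 gave -6.49, -1.23 and -4.55 in the series that holds their listings at 0 and 0.36, 1.90 and 0.43 in the other.

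Markers of cells that make simple keratins were set beside these values. Of 10 gland and simple epithelium markers, 0 were called (1.38% over all genes) and 4 had an unadjusted p below 0.05, against 7.56% of all genes, all 4 higher (Epcam, Elf3, Wfdc2 and Muc1; smallest adjusted p = 0.158 from limma). Their summed level was 68.1, 83.2 and 183 FPKM in controls versus 226, 166 and 200.4 FPKM in the JunBΔep replicates. Wfdc2, a secreted protein of glandular epithelium, was at 0.520, 0.170 and 1.97 FPKM in controls versus 16.0, 4.67 and 32.2 FPKM in the JunBΔep replicates. The water channel Aqp5 of sweat and salivary glands was highest in control replicate 2, at 49.2 FPKM, and next in JunBΔep replicate 2, at 13.1 FPKM, the libraries where Krt8 and Krt18 were high. Cldn3 and Cldn7, tight junction proteins, also had their top values there, with 22.1 and 28.8 FPKM of Cldn3 and 4.27 and 7.25 FPKM of Cldn7. Other markers of the list did not share this order: Epcam, Ehf, Elf3 and Muc1 peaked in the library labelled JunBΔep replicate 0 (6.99 to 121.6 FPKM), where Krt8 was at 0.248 and Krt18 at 0.990 FPKM. Among Merkel cell markers, Atoh1, the defining transcription factor, was at 0.0343 FPKM or less in all 6 libraries and Krt20 at 0.104 to 0.692 FPKM. Of the 6 on that list 4 were tested and 1 was called, against 1.38% of all genes: Isl1 was lower (2.89 ± 0.374 FPKM in 3 controls, 0.576 ± 0.216 FPKM in 3 JunBΔep mice, adjusted p = 0.0343 from limma). The call was lost without any one control or without JunBΔep replicate 1. It was also lost with a block on replicate numbers or on the number series. The markers did not move one way. Isl1 and Krt20 were below every control in all 3 JunBΔep libraries, whereas Chga (0.457 ± 0.105 and 0.977 ± 0.284 FPKM in controls and JunBΔep mice, adjusted p = 0.543 from limma), Piezo2 (0.126 ± 0.0369 and 0.303 ± 0.157 FPKM) and Rab3c (at 0.0190 FPKM or less throughout and not tested) were above every control in all 3. Over all genes tested, 5.62% were above every control and 14.8% did not overlap in either direction. The part of gland cells in the levels of Krt8, Krt18 and Krt19 was not tested.

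**Figure D4:**
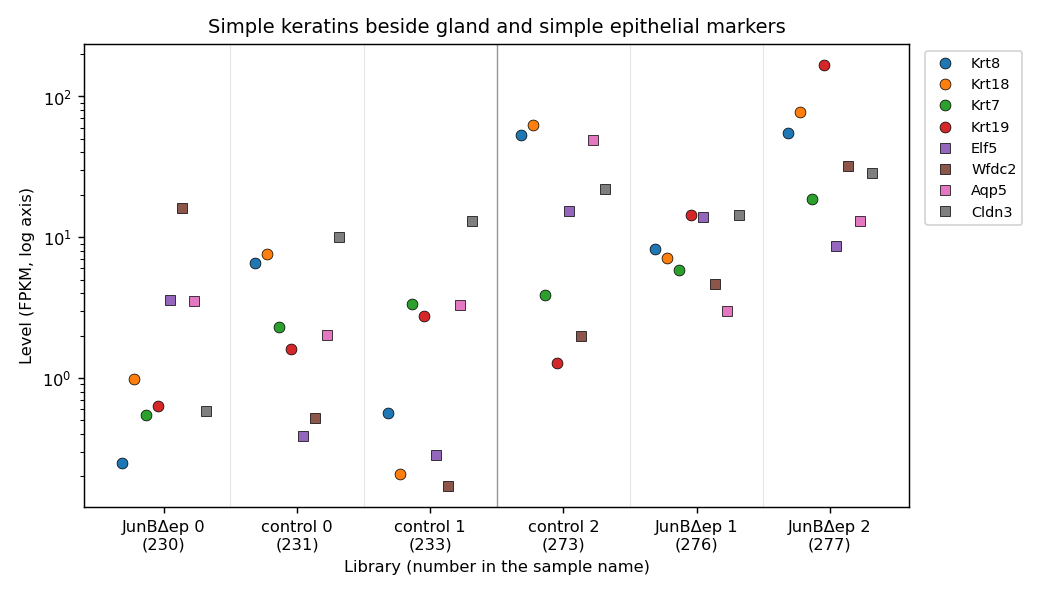
Simple keratins (circles) and gland or simple epithelium markers (squares) in each library (FPKM, log axis), with libraries placed by the number in the sample name and the vertical line between the number series. Krt8 and Krt18 are near 53.6 to 77.2 FPKM in control replicate 2 and JunBΔep replicate 2, and Krt19 reaches 167 FPKM in the latter alone.

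As a share of the summed FPKM of the 52 genes with a keratin symbol, the 10 members took 5.04%, 6.61% and 6.15% in controls and 36.3%, 8.37% and 9.74% in JunBΔep replicates 0, 1 and 2. Every JunBΔep library was above every control, but the list was selected on this contrast and the share also depends on the keratin sum. That sum was lowest in JunBΔep replicate 2, at 11124 FPKM, while no control fell under 13683 FPKM. The 10 members alone reached 1084 FPKM there, and 911 FPKM in the highest control. For the library labelled JunBΔep replicate 0, Krt14 entered the keratin sum at its listing of 0. The mean shares were 5.93% ± 0.805 (SD, n = 3) and 18.1% ± 15.8 (SD, n = 3). Their difference of 12.2 percentage points became 3.12 without the library labelled JunBΔep replicate 0. Stress-induced keratins, nearly all Krt17, took 4.92% to 6.57% in controls and 19.7%, 8.20% and 7.04% in JunBΔep replicates 0, 1 and 2. As summed levels, replicates 0 and 1 were above every control too. The sum of 783 FPKM in JunBΔep replicate 2 lay inside the control range of 673 to 907 FPKM. Mucosal keratins took 16.6% in the library labelled JunBΔep replicate 0 and at most 0.00983% elsewhere. Simple keratins took 0.799% in control replicate 2 and 2.69% in JunBΔep replicate 2, and at most 0.168% in the other libraries. All keratins together made 2.21% to 3.67% of the FPKM sum.

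**Figure D5:**
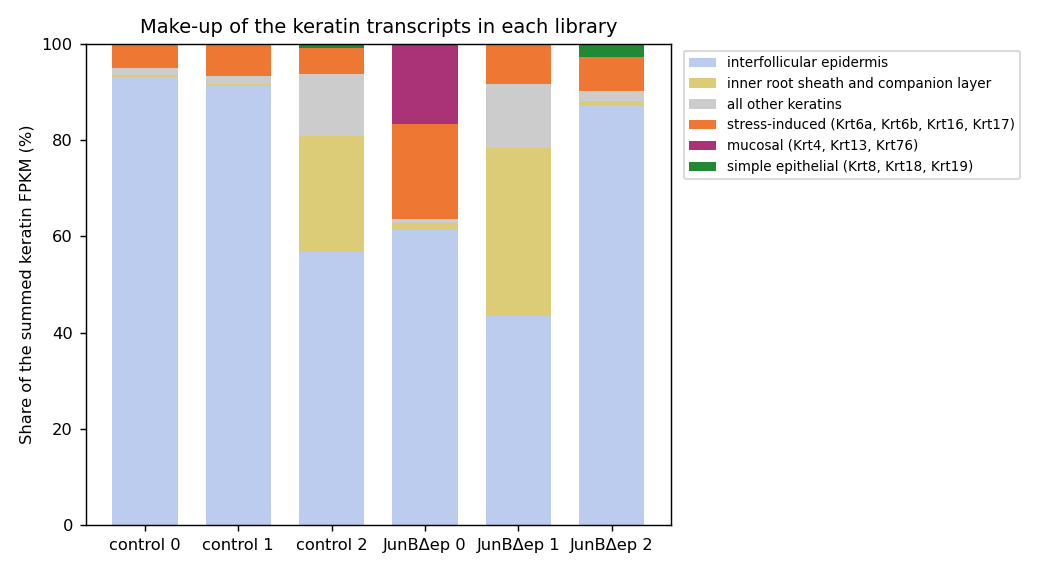
Stacked shares of the summed keratin FPKM in each library (%), with the 3 member sets on top. The members fill 5.04% to 6.61% of each control bar and 36.3% of the bar of JunBΔep replicate 0, while inner root sheath keratins fill 24.0% in control replicate 2 and 34.9% in JunBΔep replicate 1.

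The other keratins of skin were counted in lists named by layer. Of 10 interfollicular epidermal keratins 0 were called, and 1 had an unadjusted p below 0.05 (Krt2, a late differentiation keratin of cornified skin such as the footpad, log2 difference -0.53, standard error 0.20, adjusted p = 0.601 from limma). In the library labelled JunBΔep replicate 0 their balance stood apart: Krt1, the early suprabasal type II chain, was at 4466 FPKM against 446 to 958 FPKM elsewhere, Krt15, a basal keratin, at 80.7 FPKM against 947 to 2388 FPKM, and Krt77 at 1.79 FPKM against 945 to 2159 FPKM. Krt5 was at 3725 FPKM there versus 1588 to 2538 FPKM elsewhere. Krt10, the partner of Krt1, was at 3517 FPKM there, inside the range of 1968 to 3872 FPKM of the others. Of 9 inner root sheath and companion layer keratins 0 were called. They summed to 3537 FPKM in control replicate 2, 6162 FPKM in JunBΔep replicate 1 and 40.3 to 299 FPKM in the other 4 libraries. Of the 8 other simple and mucosal keratins 0 were called. Over all genes tested 1.38% were called. Over these 3 lists and those for mucosa, anchors and upstream factors, Krt2 was the 1 gene of 64 tested with an unadjusted p below 0.05, against 7.56% of all genes. This count was not stable: it was 9 without JunBΔep replicate 2, 6 without control replicate 2, 4 without JunBΔep replicate 1, 3 of 59 without the library labelled JunBΔep replicate 0 and 0 without control replicate 1.

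Anchors and linkers tie keratin filaments to desmosomes and hemidesmosomes. Of 12 tested 0 were called, against 1.38% of all genes, and 8 were higher on average and 4 lower, beside 9097 higher of 17021 over all genes, with a median log2 difference of 0.12 (0.02 without the library labelled JunBΔep replicate 0). Pkp1, a desmosomal plaque protein of the suprabasal epidermis, was at 225, 158 and 188 FPKM in controls versus 452, 213 and 172 FPKM in the JunBΔep replicates. Dst, which holds the hemidesmosomal linker BPAG1, was at 38.8 to 47.6 FPKM in controls versus 14.9, 29.1 and 48.1 FPKM in the JunBΔep replicates.

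Growth factors, cytokines and transcription factors known to act upstream of stress keratins made a list of 18 genes, of which 16 were tested and 0 called (1.38% over all genes). Il17a was among the 16 only through the library labelled JunBΔep replicate 0. The median log2 difference was 0.52, and 0.23 without the library labelled JunBΔep replicate 0. With all libraries 15 of 16 were higher on average, beside 9097 of 17021 over all genes. Of the 18, 15 had their highest value in the library labelled JunBΔep replicate 0, against 29.7% of all genes tested. Areg, a ligand of the EGF receptor, was at 1.94, 2.75 and 4.43 FPKM in controls versus 88.3, 12.8 and 4.50 FPKM in the JunBΔep replicates. Hbegf, another such ligand, was at 2.97, 3.45 and 3.15 FPKM in controls versus 81.4, 5.52 and 4.16 FPKM in the JunBΔep replicates. The alarmin Il1a was at 3.80 to 5.25 FPKM in controls versus 40.7, 7.16 and 9.57 FPKM in the JunBΔep replicates. Myc was at 19.2 to 23.0 FPKM in controls versus 54.2, 27.5 and 27.2 FPKM in the JunBΔep replicates. In these 4 genes all JunBΔep libraries were above all controls, as for 5.62% of all genes tested. Their adjusted p-values from limma were 0.666 to 0.722. The library labelled JunBΔep replicate 0 held 30.0 FPKM of Osm, against 0.122 to 0.471 FPKM elsewhere, and 6.17 FPKM of Il17a, which induces stress keratins in psoriatic skin, against 0.122 FPKM or less elsewhere.

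The genes whose levels most resembled each set were ranked by the Pearson correlation with the mean log2 level of the set over the 6 libraries, among 13732 other genes that averaged 1 FPKM or more. For the mucosal set they were Il6, Ccl3, Sprr3, Cxcl5 and Tmprss11bnl, with correlations above 0.999, and 74 genes were above 0.99. The library labelled JunBΔep replicate 0 fixed this ranking, since all 5 genes, and 53 of the 74, reached a mean of 1 FPKM only through it: Il6 reached 31.8 FPKM in the library labelled JunBΔep replicate 0, with 0.0927 to 0.266 FPKM elsewhere, and the chemokine Cxcl5 was at 52.0 FPKM there versus 0.0436 FPKM or less elsewhere. For the stress set, whose mean carries the listings at 0, they were Slc22a17, Trpc2, Cln6, Cep83os and Zkscan5 (0.993 to 0.995). Krt17 taken alone was nearest to Adarb2, D19Bwg1357e, Lsg1, Plp2 and Ece2 (0.997 to 0.999), a ranking added after the values had been seen. For the simple set they were Tmem175, Sh3bp5, Aldh9a1, Tmco3 and Slc25a35 (0.969 to 0.987), and 0 genes were above 0.99.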

How the data were processed

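Poly(A) RNA from whole skin of 3 control and 3 JunBΔep mice was sequenced as stranded libraries. The submitters' processing notes name TopHat2 2.0.10, Bowtie 1.0.0, SAMtools 0.1.19, FastQC and Cufflinks. The authors aligned reads to mm9 and deposited 1 FPKM value per gene and mouse. The sources used here do not say which of the tools named made the FPKM values. Counts, on which the authors ran their own test, were not analysed here.

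Values were transformed to log2(FPKM + 0.5), which understates changes of low genes. The 17021 genes averaging 0.1 FPKM or more entered a two-sided limma fit (version 3.58.1, R 4.3.3; intensity trend, no block), and p-values were adjusted by Benjamini-Hochberg at a threshold of 0.05. An exact permutation test of 3 mice against 3 cannot give a p below 0.1. The labels do not say more on replicates than that the mice were littermates. The 10 keratins, the companion and marker lists and the alternatives were chosen with earlier results of these data known. Genes named are the 10 keratins, Junb, genes of these lists and, for each set, the 5 genes nearest in pattern. Flg and Capn14 were not analysed here. The procedure was tested on simulated data. Positions and coding sequences are from GENCODE vM1 on mm9, and promoters from RefSeq on GRCm38.p6. Python 3.11.15 with pandas 2.3.3, Biopython 1.88 and matplotlib 3.10.9 made the tables, alignments and figures. Alternatives were pseudocounts of 0.1 and 1, no filter and a filter at 1 FPKM, 3 rescalings, limma without the trend, a block on replicate numbers or on the number series of sample names, and each mouse left out. Treating listings at 0 as missing, counts of genes without overlap, and counts of genes that pass a filter only through 1 library were added after seeing the data.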

Additional observations from a re-analysis of the deposited data

How the results depend on the processing

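The count of genes called over the whole table was 0 instead of 235 with the replicate block and 0 with a block on the number series. At an unadjusted p below 0.05 these fits held 972 and 1523 genes. The deviations of same-numbered libraries had correlations of 0.12, -0.23 and -0.43. Such values cannot decide whether same-numbered mice were paired, because the deviations within a small group depend on each other. Leaving out 1 library gave 0 to 254 calls: 0 without any one control or without JunBΔep replicate 1, 135 (10 of them higher) without JunBΔep replicate 0 and 254 without JunBΔep replicate 2. Other settings gave 166 to 247. The companion lists held 0 calls under every setting run. Their count at an unadjusted p below 0.05, 1 of 64, ran from 0 (filter at a mean of 1 FPKM) to 7 (number series block) with all 6 libraries kept, with 4 under quantile normalization. The median log2 difference of the 10 keratins was 0.89, with 0.84 to 1.31 under the other settings that keep all 6 libraries. With 1 library left out it ran from 0.36 (without JunBΔep replicate 2) to 1.69 (without control replicate 2). The difference in the share of keratin FPKM, 12.2 percentage points, ran from 3.12 (without JunBΔep replicate 0) to 17.1. Of 140 recomputed differences of single keratins, 126 kept their direction and 14 did not, 6 of them without JunBΔep replicate 0. Part of the 126 could not turn. The replicate block returned the main differences unchanged. Treating listings at 0 as missing changed only Krt6a, Krt6b and Krt16. The 126 therefore overstate how stable the directions were. The cause of these changes was not tested. Without read counts, the depth behind values under 1 FPKM is unknown.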
